A study of Mus musculus with 10 samples.

Results

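This account covers 5 genes that encode regulators of transcription, Mef2a, Irf1, Zbtb16, Purb and Arid5b, in denervated mouse muscle. They were taken from the array by name: each spot whose single gene symbol, or its current mouse symbol, was one of the 5 was kept. This gave 5 of the 89 genes with a single symbol on the array and 6 of its 2304 probes, since Purb had 2 probes, which were kept apart as probe A and probe B. Each probe was printed as 4 spots, so the 5 genes held 24 of the 9216 spots.

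Denervated TA muscle, a fast-twitch muscle of the lower hindlimb, was hybridised against its contralateral counterpart, both from 3-month-old CD1 mice, on spotted 2-colour cDNA arrays. Each array carried RNA of both muscles, reverse transcribed from 8 µg of total RNA, and there were 2 arrays at each of time 0 and days 1, 3, 7 and 14, one with a first labelling and the other with the dyes exchanged (the reverse labelling). The contralateral muscle was the control, and no sham-operated muscle is among the labels. The labels give no genotype, no number of animals and no statement of whether the 2 arrays of a time point shared extracts. An SD or p-value for a time point or a difference thus describes how far arrays, not animals, differed, and that may be technical. Those of the mean over days 1 to 14 and of the slope describe the spread between time points, again not between animals.

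Values are given as log2(denervated / contralateral), and those above 0 stand for more RNA in the denervated muscle. Whole muscle was measured: fewer cells of a type and less RNA per cell cannot be told apart. Only ratios were used, so no gene's level in either muscle, and no signal over background, is known, and the labelled tissue could not be checked by levels. Of 20 markers of adult skeletal muscle, 3 (Trdn, Neb and Scn4b) were named on the array, and of the marker lists for satellite cells, leukocytes, fibroblasts, endothelial cells, Schwann cells, adipocytes and blood, 0 were.

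A motor nerve sets the activity of its muscle fibres, and loss of the nerve is followed by atrophy and by a changed programme of transcription in the fibre nucleus. MEF2 factors bind A and T-rich boxes in muscle promoters, work with the myogenic basic helix-loop-helix factors and are held inactive by class II histone deacetylases. The PUR proteins bind single-stranded purine-rich DNA and repress several contractile protein genes. Irf1 is induced by interferon and activates antigen-presentation genes, Zbtb16 (PLZF) is a BTB zinc finger repressor that glucocorticoids induce, and Arid5b is a DNA-binding partner of the histone demethylase PHF2.

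Mef2a (Entrez 17258) lies on chromosome 7, 67231163 to 67376456, Irf1 (Entrez 16362) on chromosome 11, 53770014 to 53778374, and Zbtb16 (Entrez 235320) on chromosome 9, 48651797 to 48836225. Purb (Entrez 19291) lies on chromosome 11, 6467599 to 6476076, and Arid5b (Entrez 71371) on chromosome 10, 68092523 to 68279355. All 5 are protein-coding in the RefSeq annotation of GRCm38.p6, whose whole gene spans these are. The sources used here do not give the position of a probe within its gene.

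The promoters of Mef2a and Irf1 are shown because these were the 2 members that passed a test on a single day. RefSeq promoter windows, from 250 bases before to 50 bases after the start, were at hand for 4 of the 5 genes, all but Zbtb16. They were searched on both strands for the MEF2 box, the E-box CANNTG that basic helix-loop-helix factors bind, and the SRF box. Capitals mark the MEF2 box in Mef2a (chr7:67372851-67373108, minus strand) and the E-box in Irf1 (chr11:53769764-53770013, plus strand), both in GRCm38.p6, and each sequence reads 5′ to 3′ towards the start.
Mef2a: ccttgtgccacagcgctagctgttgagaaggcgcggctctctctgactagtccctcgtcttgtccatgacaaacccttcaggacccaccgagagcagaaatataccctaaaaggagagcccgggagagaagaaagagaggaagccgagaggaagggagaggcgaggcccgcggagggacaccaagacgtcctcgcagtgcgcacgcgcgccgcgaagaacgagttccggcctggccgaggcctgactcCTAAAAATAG
Irf1: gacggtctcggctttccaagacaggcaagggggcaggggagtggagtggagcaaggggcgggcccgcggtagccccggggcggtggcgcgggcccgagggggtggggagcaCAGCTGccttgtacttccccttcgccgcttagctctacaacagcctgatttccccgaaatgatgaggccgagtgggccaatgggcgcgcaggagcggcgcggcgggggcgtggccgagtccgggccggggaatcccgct
The Mef2a box spans the start of this window, with 2 bases before it and 8 after it. This window lies wholly within the gene span given above, whose 5′ end is at 67376456, so its start is not that end. Of all 32817 windows, 3.187% held a MEF2 box. The Irf1 E-box lies 139 to 134 bases before the start of this window. RefSeq gives Irf1 a second start with a window at chr11:53770223-53770522, which held none of the 3 motifs. E-box letters were in 72.32% of all windows and the SRF box in 1.63%. The Arid5b and Purb windows held none of the 3 motifs, and that of Arid5b (chr10:68278677-68278976) also lies wholly within its gene span. No 2 matches in these windows overlapped, and a match is a run of letters, not a measured site.

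By correlation, agreement between the arrays was low across the series as a whole. The correlation of the 2 arrays of a time point over all 2304 probes was 0.125 at time 0, -0.289 on day 1, 0.271 on day 3, 0.179 on day 7 and -0.0737 on day 14. The share of probes with the same sign on both arrays was 62.7% at time 0 and 51.4% on day 1. It was 74.6% on day 3, 71.7% on day 7 and 64.8% on day 14. The labels name the same channels on both labellings and state one direction for every array, and that statement sets the sign here. Scn4b, a sodium channel subunit outside the 5 genes, was below 0 by both of its probes on both labellings on days 3, 7 and 14. Of the other muscle markers named, probes A and B of Trdn were below 0 on the same arrays. Neb was below 0 on both arrays of day 7 (-0.27 and -0.17) and split on day 3 (-0.68 and 0.22). On day 14 Neb was above 0 (1.02 and 1.47). Probe C of Trdn was above 0 on day 3 (0.53 and 0.65) and split on days 7 and 14. On each array 1 value recurred in 91 to 745 spots, but in 0 of the spots of the 5 genes.

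In denervated muscle, Mef2a RNA was higher on day 7 and Irf1 RNA was lower on day 14, and these were the 2 of 30 ratios (6 probes at 5 time points) that passed the test. The test was limma on the 10 arrays, with one mean per time point set against 0 and Benjamini-Hochberg adjustment over the 2304 probes, at a threshold of 0.05. Both calls were lost with each print block of the array centred on its median (adjusted p = 0.0554 for Mef2a and 0.128 for Irf1). They were also lost with time 0 subtracted (0.0995 and 0.384). No probe of the 5 genes passed at time 0, where 0% of all probes did, on day 1, where 0.0434% did, or on day 3, where 7.99% did. On day 7, 1 of the 6 probes passed, beside 11.7% of all probes, and on day 14 again 1 of 6, beside 14.3%. Counts this near the shares of all probes do not set the 5 genes apart. The median ratio of all probes was 0.05 on day 3, 0.08 on day 7 and -0.03 on day 14. Without adjustment, 6 of the 30 ratios (20.0%) had a p under the same threshold, beside 21.2% of the 11520 ratios of all probes.

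**Figure D1:**
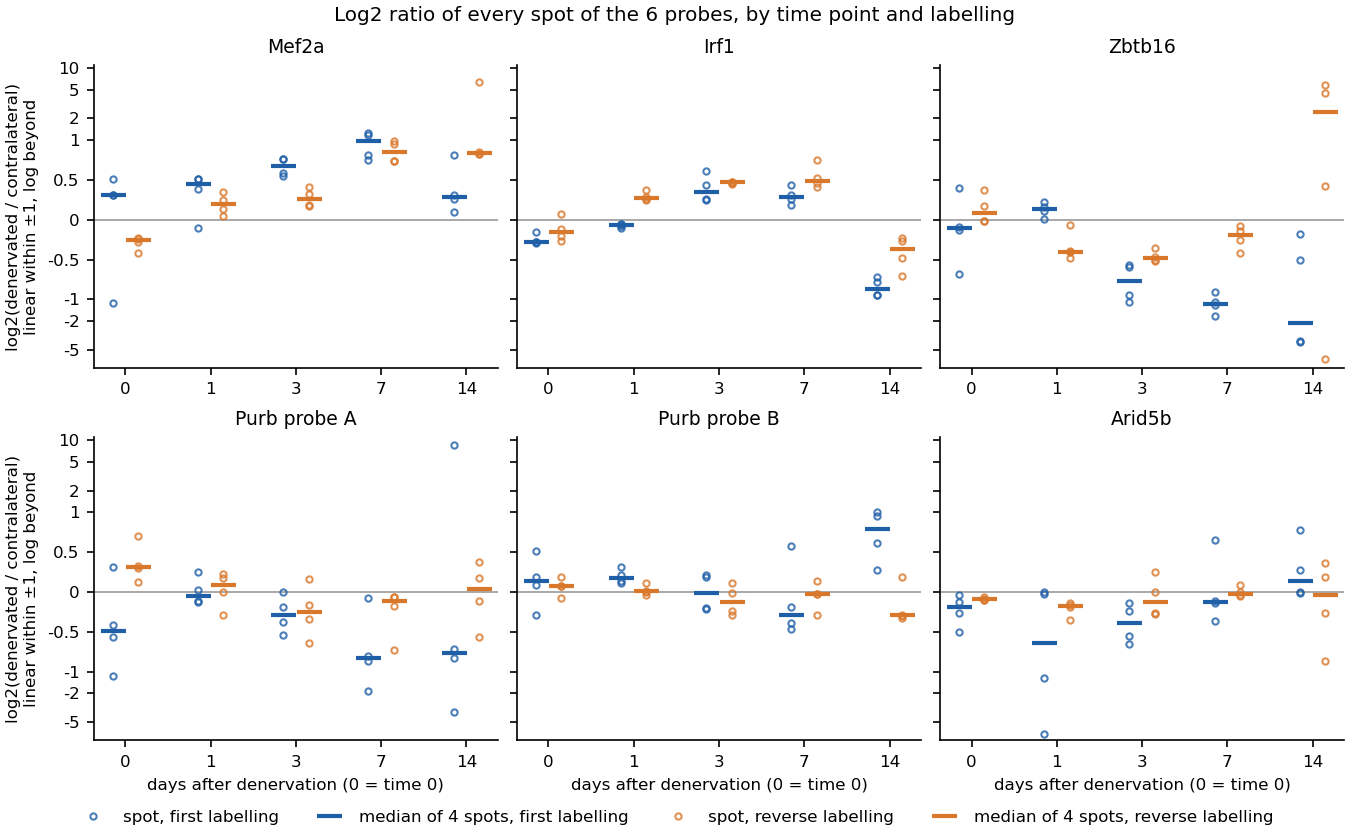
Log2(denervated / contralateral) for every spot of the 6 probes (open circles) and the median of the 4 spots on each array (bars), by days after denervation and labelling; the axis is linear within 1 log2 unit of 0 and logarithmic beyond. Mef2a reaches 0.99 and 0.85 on day 7, Irf1 falls to -0.86 and -0.37 on day 14, and the Zbtb16 medians on day 14 stand at -2.15 and 2.47.

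Mef2a encodes a MEF2 factor of differentiating and adult muscle. Its ratio was 0.31 on the first and -0.26 on the reverse labelling at time 0, 0.45 and 0.19 on day 1, and 0.68 and 0.26 on day 3. It was 0.99 and 0.85 on day 7, and 0.28 and 0.84 on day 14. All 8 arrays after time 0 were thus above 0, while the time 0 arrays lay on either side of it.

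On day 7, Mef2a averaged 0.92 ± 0.10 (SD, n = 2 arrays), a 1.89-fold higher amount in denervated muscle, with a 95% interval of 0.42 to 1.42 and an adjusted p of 0.0366. The 4 spots read 1.17, 0.81, 1.26 and 0.75 on the first labelling and 0.98, 0.95, 0.74 and 0.73 on the reverse. Every spot was above 0, and the 2 arrays overlapped. Of the 92 other probes with a single symbol, 5 had a higher mean ratio that day, and 90.4% of all probes had a lower one. The call was lost when either array of day 7 was left out, at 0.85 (adjusted p = 0.234) on the reverse labelling alone and 0.99 (0.122) on the first alone, and when the 4 spots were averaged (0.93, adjusted p = 0.177).

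The other days did not pass. Mef2a averaged 0.32 ± 0.18 on day 1 (adjusted p = 1.00), 0.47 ± 0.30 on day 3 (0.209) and 0.56 ± 0.39 on day 14 (0.117), against 0.03 ± 0.40 at time 0. Its 8 spots of a day were all above 0 at days 3, 7 and 14, which 17.6%, 18.9% and 14.2% of all probes also showed. On day 1, 7 of the 8 spots were above 0, and no other named probe had a higher mean, while 93.75% of all probes had a lower one.

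Set against time 0, day 7 was higher by 0.89 ± 0.29 (SE), with an adjusted p of 0.0995. In order of the means, time 0 came lowest, then days 1, 3, 14 and 7, and the arrays of neighbours overlapped except those of days 14 and 7. The nearest arrays of these 2 days all but met, at 0.837 on day 14 and 0.845 on day 7, both on the reverse labelling. The day 14 minus day 7 difference was -0.36, with a 95% interval of -1.06 to 0.34. On the reverse labelling on day 14, 1 spot of Mef2a read 6.44 where the other 3 lay between 0.82 and 0.86, and the median of the 4 is not moved by it.

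The named probes most like Mef2a over the 10 arrays were DPYSL3, a dihydropyrimidinase-like protein that binds the cytoskeleton (r = 0.76, rho = 0.76), Nt5dc2 (r = 0.71, rho = 0.79) and Hcfc2 (r = 0.65, rho = 0.70). Over the 8 arrays without day 14 the same r were 0.81, 0.66 and 0.74. Of all probes, 29 had a higher r with Mef2a than DPYSL3 had. The 10 points share 5 time points and the labelling pairs.

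Irf1 encodes an interferon-induced transcription factor. Its ratio was -0.29 and -0.16 on the first and reverse labelling at time 0, -0.07 and 0.27 on day 1, and 0.35 and 0.47 on day 3. It was 0.28 and 0.49 on day 7, and -0.86 and -0.37 on day 14. Both arrays were below 0 at time 0 and on day 14 and above 0 at days 3 and 7.

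On day 14, Irf1 fell to -0.62 ± 0.35 (SD, n = 2 arrays), 0.652 times the contralateral amount, with a 95% interval of -0.99 to -0.24 and an adjusted p of 0.0475. The 4 spots read -0.72, -0.95, -0.79 and -0.94 on the first labelling and -0.27, -0.71, -0.23 and -0.48 on the reverse. All 8 were below 0, as for 14.2% of all probes, and the arrays did not overlap. Without the first-labelling array the day 14 value was -0.37 (adjusted p = 0.254), and with time 0 subtracted it was -0.40 ± 0.22 (SE, adjusted p = 0.384).

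The earlier values of Irf1 did not pass. They were 0.41 ± 0.08 on day 3 (adjusted p = 0.160) and 0.38 ± 0.14 on day 7 (0.161), against -0.22 ± 0.09 at time 0. On both days all 8 spots were above 0, as for 17.6% of all probes on day 3 and 18.9% on day 7. Against time 0, day 3 differed by 0.63 ± 0.22 (SE, adjusted p = 0.113) and day 7 by 0.61 ± 0.22 (0.125).

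Differences between time points were tested in the same fit for all 10 pairs of time points, of which day 7 and day 14 against day 1 and day 14 against day 3 were added after the ratios had been seen. Among 60 such differences of the 6 probes, 1 passed: Irf1 fell by 1.03 ± 0.22 (SE) between day 3 and day 14. Its 95% interval was -1.56 to -0.49 and its adjusted p 0.0452, and 7.51% of all probes passed for this 1 pair. The adjustment ran over the probes within a pair of time points and not over the 10 pairs. The day 14 minus day 7 difference of Irf1 was -1.002 (adjusted p = 0.0738), for a pair in which 0.781% of all probes passed. All arrays of days 3 and 7 lay above both day 14 arrays. The day 14 minus day 3 call was lost without the first labelling of day 3 (-1.09, adjusted p = 0.194), without its reverse labelling (-0.97, 0.125) and without the first labelling of day 14 (-0.78, 0.0839).

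For the other pairs of time points, 0 of the 6 probes passed. The share of all probes that did was 0% for day 1 minus time 0, 6.99% for day 3, 10.8% for day 7 and 4.08% for day 14 minus time 0. It was 1.04% for day 3 minus day 1, 0.564% for day 7 minus day 3, 3.52% for day 7 minus day 1 and 3.47% for day 14 minus day 1.

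**Figure D2:**
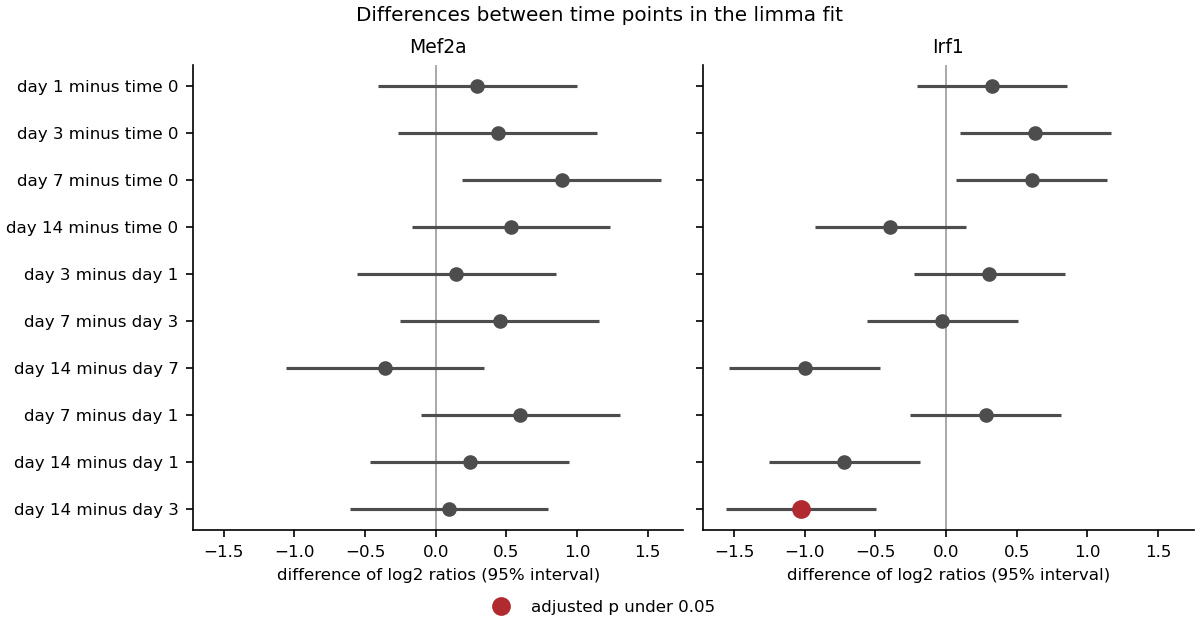
Differences of log2 ratios between time points for Mef2a (left) and Irf1 (right), as points with 95% intervals from the limma fit; a red point has an adjusted p under 0.05. Irf1 on day 14 minus day 3 (-1.03) is the one red point, and the Mef2a difference furthest from 0 is day 7 minus time 0 at 0.89.

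The order of the Irf1 means was day 14, time 0, day 1, day 7 and day 3, from low to high, and the arrays of neighbours did not overlap except those of days 7 and 3. The reverse labelling was the higher one at all 5 time points, by 0.12 to 0.49. The named probes most like Irf1 were Myl6, a non-muscle and smooth muscle myosin light chain (r = 0.96, rho = 0.94), Tmem263 (r = 0.91, rho = 0.94) and Slc7a1, a transporter of cationic amino acids (r = 0.91, rho = 0.85). Over the 8 arrays without day 14 the r were 0.96, 0.90 and 0.83. Tmem263 was printed in the same print block as Irf1.

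Zbtb16 encodes a zinc finger repressor. Its ratio was -0.11 on the first and 0.08 on the reverse labelling at time 0, 0.13 and -0.40 on day 1, and -0.77 and -0.49 on day 3. It was -1.15 and -0.20 on day 7, and -2.15 and 2.47 on day 14. Both arrays of days 3 and 7 were below 0, and those of day 14 were opposite in sign.

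Zbtb16 averaged -0.63 ± 0.20 on day 3 and -0.67 ± 0.67 on day 7 (SD, n = 2 arrays each), against -0.02 ± 0.13 at time 0. All 8 spots were below 0 on both days, which 17.2% of all probes showed on each. Neither day passed, with adjusted p of 0.779 and 0.704. The fit shares 1 spread over the 5 time points, and with the day 14 arrays in it the SE of Zbtb16 was 0.94. With both day 14 arrays left out, an alternative chosen after seeing the data, the unadjusted p was 0.0533 on day 3 and 0.0426 on day 7, and the adjusted p were 0.191 and 0.144.

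On day 14 the Zbtb16 spots of the first labelling read -3.99, -3.80, -0.18 and -0.51, and those of the reverse labelling 5.77, 4.52, 0.42 and -6.79. The spots of the reverse array spanned 12.6 log2 units, and their mean with the first array's was -0.57 where the medians averaged 0.16 ± 3.27. On the reverse labelling alone the day 14 value was 2.47 (adjusted p = 0.00800) and on the first alone -2.15 (0.0238), in fits that take the lone array to vary like the other time points. The day 14 arrays thus gave no direction for Zbtb16. In order of the means, days 7 and 3 came lowest and overlapped, day 1 lay above day 3 with no overlap, and time 0 and day 14 followed with overlapping arrays.

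The named probes most like Zbtb16 were Rabep1, an effector of Rab5 on endosomes (r = 0.98, rho = 0.88), Ttc19 (r = 0.85, rho = 0.35) and Dusp11 (r = 0.85, rho = 0.61). Without day 14 these r were 0.79, -0.30 and 0.65, so that for Ttc19 the likeness rested on the day 14 arrays. Rabep1 and Dusp11 were printed in the same block as Zbtb16.

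Purb encodes a PUR protein that binds single-stranded DNA and represses muscle genes, among them the alpha and beta myosin heavy chains of the heart. Probe A read -0.49 and 0.31 on the first and reverse labelling at time 0, -0.05 and 0.08 on day 1, and -0.29 and -0.25 on day 3. It read -0.84 and -0.12 on day 7, and -0.77 and 0.03 on day 14. Both arrays were below 0 at days 3 and 7, and the reverse labelling was the higher one at all 5 time points, by 0.04 to 0.80.

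Probe B of Purb read 0.14 and 0.07 at time 0, 0.17 and 0.00 on day 1, and -0.01 and -0.12 on day 3. It read -0.29 and -0.03 on day 7, and 0.78 and -0.29 on day 14. Its arrays were also below 0 at days 3 and 7, by smaller amounts, and split on day 14.

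Neither probe of Purb passed at any time point. On day 7, probe A averaged -0.48 ± 0.51 (adjusted p = 0.305) with all 8 spots below 0, as for 17.2% of all probes, and probe B averaged -0.16 ± 0.19 (0.733) with 6 of 8 spots below 0. Day 7 was the lowest time point for each of them, and neighbouring means overlapped at every step but that of probe B between days 3 and 1. Against time 0 the day 7 difference was -0.39 for probe A, with a 95% interval of -1.34 to 0.57, and -0.26 for probe B, with an interval of -1.08 to 0.55.

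The 2 Purb probes come from the same sequence record in the annotation but differed from each other. Over the 10 arrays they correlated at r = -0.28 (rho = -0.03), and over the 8 arrays without day 14 at r = 0.58. They had the same sign on 6 of 10 arrays, and probe A was the lower one on 7. The median of their absolute differences was 0.259 and the highest was 1.55, on the first labelling on day 14. The other pairs of named probes that share a sequence record, of Scn4b and of Trdn (probes A and B), correlated at r = 0.86 and 0.60, with median differences of 0.217 and 0.193. A probe of Trdn from another record, probe C, was at 0.59 on day 3, where probes A and B were at -0.40 and -0.53.

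On that array on day 14, probe A of Purb had spots at -3.72, -0.82, 8.64 and -0.72, a span of 12.4 log2 units. Probe B had spots at 1.02, 0.61, 0.28 and 0.96 on the same array, all above 0. With the first labelling of day 14 alone, probe B was 0.78 (adjusted p = 0.0385), and with the reverse alone -0.29 (0.313). Probe A was most like Prxl2c (r = 0.85, rho = 0.72), the checkpoint kinase Chek1 (r = 0.82, rho = 0.82) and Zfp568 (r = 0.75, rho = 0.75), which without day 14 came to 0.81, 0.78 and 0.89. Chek1 and Zfp568 were printed in the same block as probe A. Probe B was most like Tmem243 (r = 0.76, rho = 0.44), Herc1 (r = 0.72, rho = 0.43) and Psmd1 (r = 0.49, rho = -0.07), which without day 14 came to 0.25, 0.04 and -0.20.

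Arid5b encodes an AT-rich interaction domain protein that recruits PHF2 to its target genes. Its ratio was -0.20 and -0.10 on the first and reverse labelling at time 0, -0.64 and -0.18 on day 1, and -0.40 and -0.13 on day 3. It was -0.13 and -0.02 on day 7, and 0.14 and -0.04 on day 14. The lowest value on either labelling was that of day 1, and the ratios of days 7 and 14 lay within 0.14 of 0.

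On day 1, Arid5b averaged -0.41 ± 0.33 (SD, n = 2 arrays), against -0.15 ± 0.07 at time 0, and 1 of the 92 other named probes had a lower mean. Its unadjusted p was 0.0275 and its adjusted p 1.00, and 1 of the 2304 probes passed that day. The first labelling held spots at -0.0040, -0.03, -7.32 and -1.25 and the reverse labelling spots at -0.14, -0.19, -0.35 and -0.17. All 8 were below 0, as for 7.2% of all probes, but they were all below 0 at time 0 too, as for 13.3%. The day 1 minus time 0 difference was -0.26, with a 95% interval of -0.75 to 0.23.

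Arid5b averaged -0.26 ± 0.19 on day 3 (adjusted p = 0.299), -0.07 ± 0.07 on day 7 (0.810) and 0.05 ± 0.13 on day 14 (0.849). The arrays of neighbouring means overlapped at every step. Arid5b was most like Ubn2 (r = 0.78, rho = 0.55), which was printed in the same block, Lpar6 (r = 0.62, rho = 0.78) and the RNA helicase Ddx42 (r = 0.60, rho = 0.77). Without day 14 these r were 0.81, 0.42 and 0.33.

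The array was printed in 16 blocks of 144 probes, and the block medians moved with several of these ratios. On day 14 the block of Irf1 had a median of -0.66 on the first and -0.11 on the reverse labelling, beside array medians of -0.15 and 0.04. On day 7 the block of Mef2a had medians of 0.54 and 0.07, beside array medians of 0.09 and 0.02. With each block centred on its median, Irf1 on day 14 was -0.31 (adjusted p = 0.128), Irf1 on day 14 minus day 3 was -0.71 (0.0515) and Mef2a on day 7 was 0.68 (0.0554).

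The means of probe B of Purb lay near the median of its block at 4 of the 5 time points. Probe B averaged 0.10 at time 0, 0.09 on day 1, -0.07 on day 3, -0.16 on day 7 and 0.24 on day 14, and the block averaged 0.11, 0.0086, -0.07, -0.17 and 0.21. The gap between means was widest on day 1. On single arrays the gap was wider on day 14, with probe B at 0.78 and -0.29 and its block at 0.25 and 0.17. On day 7 the block of probe A had a median of -0.29 and probe A averaged -0.48. The block of Zbtb16 had medians of -0.11 on day 3 and -0.14 on day 7, nearer to 0 than the gene's -0.63 and -0.67. The part of the print block in these results was not tested beyond the centring.

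**Figure D3:**
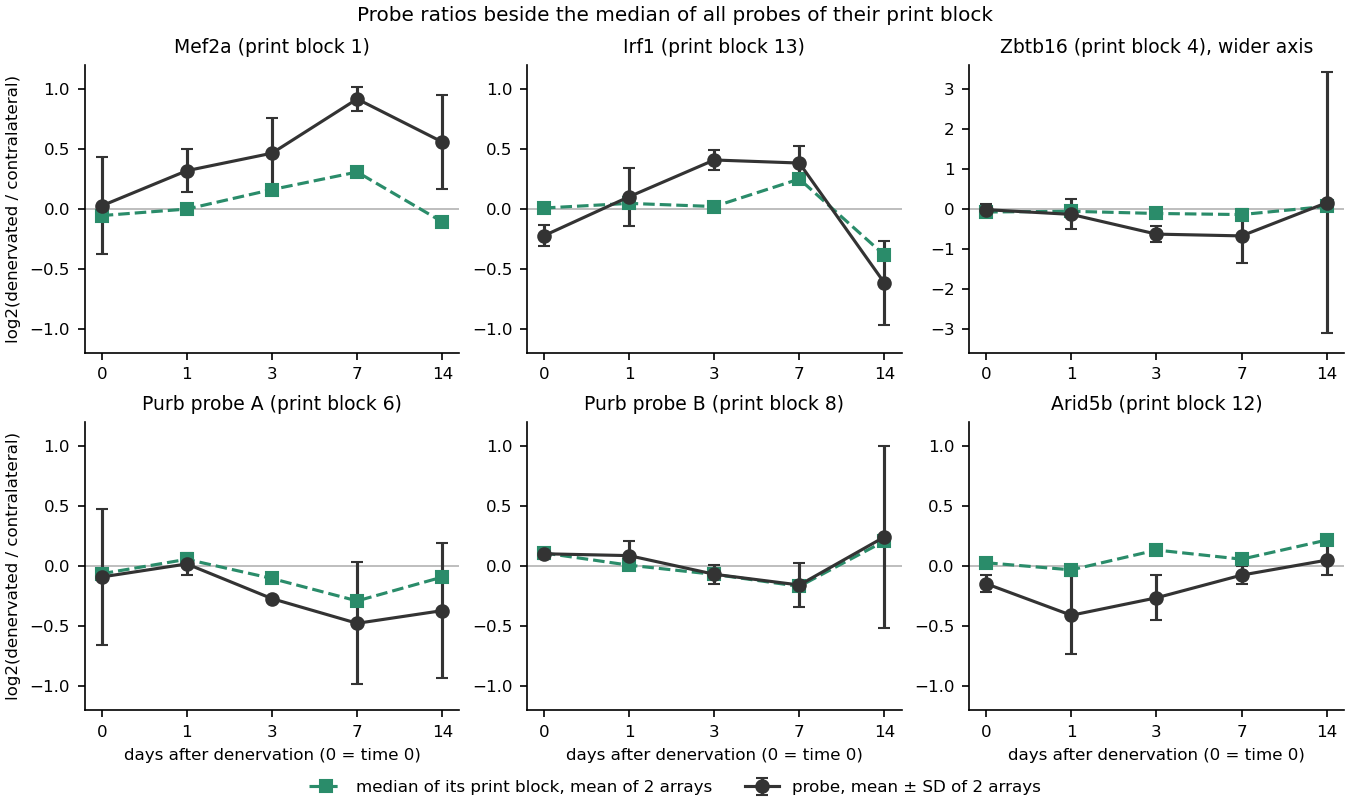
Mean log2 ratio of each probe with its SD over the 2 arrays of a time point (dark circles) and the median of its print block, averaged over the same arrays (green squares), by days after denervation, equally spaced; the Zbtb16 panel has a wider axis. The block of Irf1 falls to -0.39 on day 14, where Irf1 is at -0.62, the block of Mef2a reaches 0.31 on day 7, where Mef2a is at 0.92, and the means of probe B of Purb lie near those of its block, with the widest gap on day 1 (0.09 and 0.0086).

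The agreement of the 4 spots within an array differed between the 6 probes. It is apart from the difference between the 2 arrays of a time point. The median of that difference was 0.204 for Irf1, 0.168 for probe B of Purb and 0.178 for Arid5b. It was 0.418 for Mef2a, 0.534 for Zbtb16 and 0.718 for probe A of Purb. The 4 spots of Irf1 spanned 0.0364 to 0.483 log2 units over the 10 arrays and had a span below the array's median on 9 of 10. The spots of probe A of Purb spanned 0.378 to 12.4 and were below the array's median on 0 of 10. The median span over all probes of an array ran from 0.239 to 0.762. Of the 60 pairs of a probe and an array, 12 spanned over 1 log2 unit, and 0 of these were of Irf1.

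**Figure D4:**
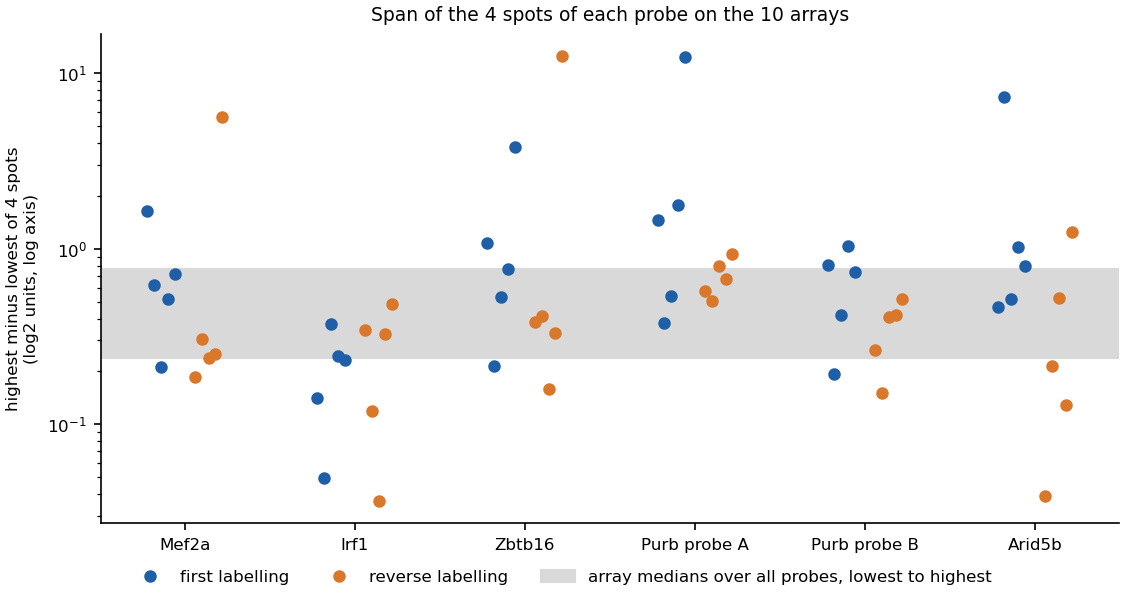
Span of the 4 spots (highest minus lowest log2 ratio, logarithmic axis) of each probe on the 10 arrays, coloured by labelling; the grey band runs from the lowest to the highest array median over all probes. Irf1 stays under 0.483 on every array, and Zbtb16 and probe A of Purb reach 12.6 and 12.4.

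The mean over days 1 to 14 and the slope with time counted the labelling pair of a time point as 1 replicate, and no probe of the 5 genes passed either test. The mean was 0.57 ± 0.25 for Mef2a (SD, n = 4 time points, adjusted p = 0.523), -0.32 ± 0.40 for Zbtb16 (0.545), -0.27 ± 0.21 for probe A of Purb (0.524) and -0.17 ± 0.20 for Arid5b (0.612). It was 0.07 ± 0.48 for Irf1 and 0.03 ± 0.18 for probe B of Purb. Arid5b was below 0 on 7 of the 8 arrays after time 0, and Mef2a was above 0 on 8 of 8. In this test 0% of all 2304 probes passed, while 194 had an unadjusted p under 0.05.

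Fitted over the 5 time points, the slope on log2(day + 1) was 0.17 ± 0.09 (SE) for Mef2a, with an adjusted p of 0.572, and again 0% of all probes passed, while 224 had an unadjusted p under 0.05. For Irf1 the slope was -0.05 over all time points and 0.21 without day 14. The slopes of the other 4 probes lay between -0.11 and 0.07.

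Few partners or targets of the 5 factors could be read. Of 27 MEF2 target and muscle differentiation genes and of 24 regulators of transcription known to respond to denervation, 0 were named on the array. Of the lists for MEF2 factors and their partners (22 genes), PUR proteins (9), BTB and glucocorticoid-induced regulators (16) and interferon regulatory factors with their targets (29), the member itself was the 1 gene named.

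The list of ARID and chromatin regulators (30 genes) held 3 other measured genes, Btaf1, Sbno1 and Smc5. Of these, 0 of 3 passed at any time point, while the share of all probes that passed ran from 0% at time 0 to 14.3% on day 14. Smc5, a subunit of the SMC5/6 complex, averaged -1.32 ± 0.14 on day 7 (adjusted p = 0.167), and Btaf1, which removes TATA-binding protein from DNA, averaged -1.31 ± 1.76 on day 14 (0.139). The medians of the 3 were -0.47 on day 3, -0.43 on day 7 and -0.30 on day 14. The list of general transcription machinery (34 genes) held Btaf1 and Zfp948, a zinc finger protein, of which Zfp948 was higher in denervated muscle on day 14. That call is of this 1 gene and is not a reading of the general machinery.

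Zfp948 read 0.87 and 0.96 on day 14, against 0.27 and 0.46 at time 0, and its day 14 mean of 0.91 ± 0.06 had an adjusted p of 0.00727. Among 10 other regulators of transcription or chromatin named on the array, a list drawn up after the annotation had been read, it was the 1 gene that passed at any time point. On day 14, 14.3% of all probes passed, and 14 of the 93 probes with a single symbol did. Hcfc2, a relative of the cell cycle regulator Hcfc1, averaged 0.55 ± 0.03 on day 7 (adjusted p = 0.0989). The median of the 10 was -0.02 on day 3, -0.20 on day 7 and -0.09 on day 14, beside 0.08, 0.12 and -0.09 for all 93 probes with a single symbol.

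Of the 3 muscle markers, Scn4b fell at days 3, 7 and 14 by both of its probes, to -1.08 and -1.28 on day 3. Neb, the thin filament protein nebulin, was at 1.25 ± 0.32 on day 14 (adjusted p = 0.0176), against 0.62 ± 0.07 at time 0 (0.335). Trdn, the junctional protein triadin, fell on day 7 by 2 of its 3 probes, to -1.06 and -0.88. Their part in the results for the 5 genes was not tested.

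**Figure D5:**
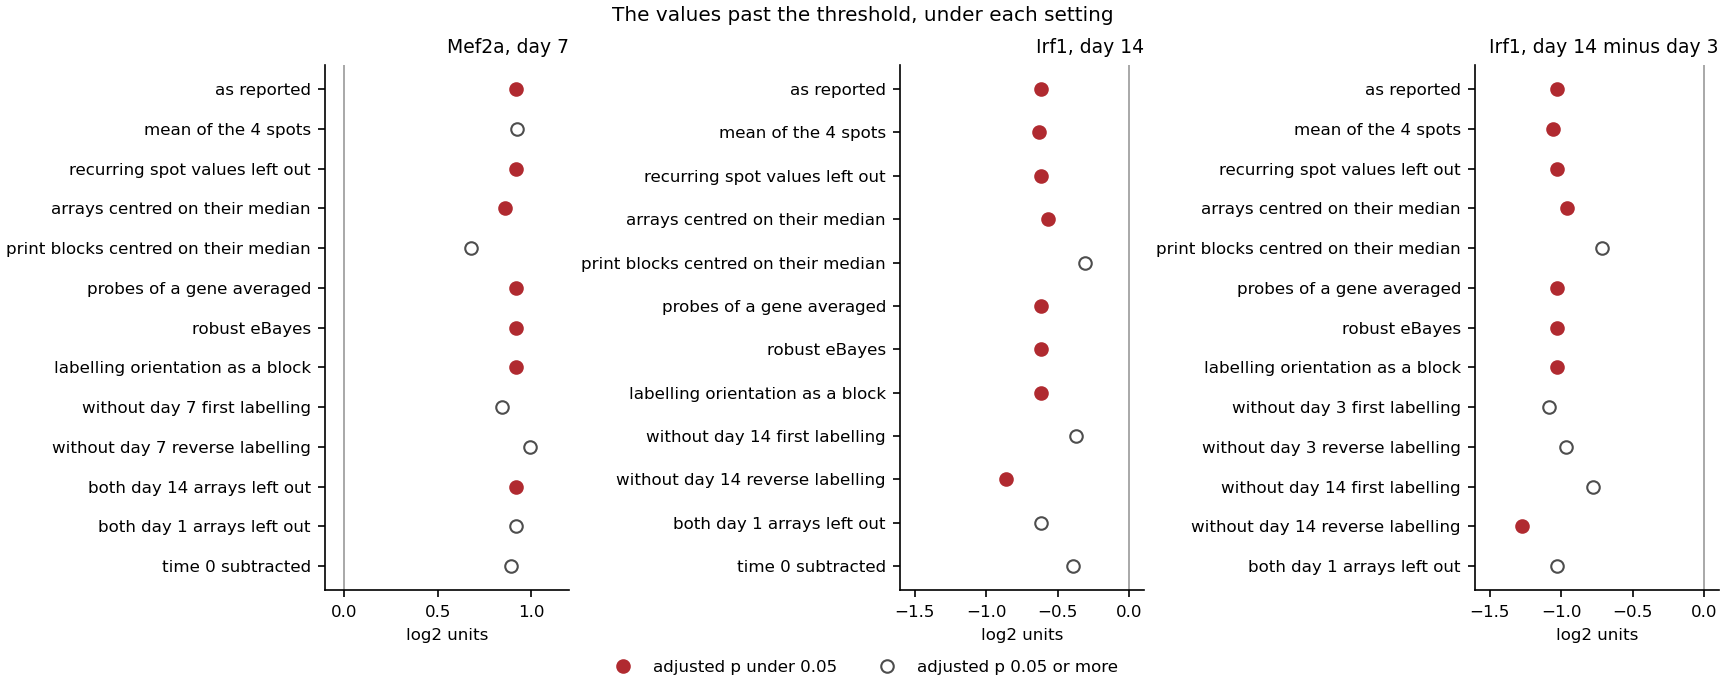
Log2 values of the 3 results past the threshold under each setting of the processing, down the page, with red points where the adjusted p was under 0.05. Mef2a on day 7 stays between 0.68 and 0.99, Irf1 on day 14 between -0.86 and -0.31 and Irf1 on day 14 minus day 3 between -1.27 and -0.71, with red and open points in each panel.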

How the data were processed

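Per the labels, the authors quantified scanned images with QuantArray, normalized the spots with SNOMAD (global and lowess), and deposited log2 ratios of the normalized intensities. The sources used here give no background correction, spot filter or software version, and intensities were not used. Named probes recurred at fixed offsets within 16 print blocks, and this layout, an inference for unnamed spots, gave 2304 probes of 4 spots, each summarised by its median. Symbols came from the platform annotation, updated through RefSeq (GRCm38.p6).

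Ratios were tested with limma 3.58.1 in R 4.3.3 (two-sided, Benjamini-Hochberg over 2304 probes, threshold 0.05). The array fit took 10 arrays as separate samples. The mean fit took the 4 time points after time 0, and the slope fit took all 5. Genes most alike were the 3 named probes with the highest Pearson r. The fits were tested on simulated data. Members and lists were chosen with earlier results of these data known. Alternatives covered spot summaries, recurring values, centring, averaging probes of a gene, robust eBayes, the labelling block, left-out arrays and time points, and time 0 subtraction. The labels pair arrays across time points by orientation alone. Reverse minus first differences correlated at 0.0336 to 0.419 between time points, and other pairing was not tested.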

Additional observations from a re-analysis of the deposited data

Results flagged for a closer look

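Irf1 was picked out because its effect of denervation differed between time points by a test of the difference itself. The day 14 minus day 3 difference was -1.03 ± 0.22 (SE), with limma's adjusted p of 0.0452, and both day 14 arrays lay below both day 3 arrays. This pair of days was added after the ratios had been seen, and 60 differences of the 6 probes were tested. The adjustment ran over the probes within this pair, where 7.51% of all probes passed, and not over the 10 pairs. Over 12 alternatives the value lay between -1.27 and -0.71 and the adjusted p between 0.0342 and 0.194, with 7 past the threshold and 5 not. Groups of 2 arrays are too small for a check of single outlying arrays.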

How the results depend on the processing

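Of 468 alternative values for the 6 probes, 415 kept their direction and their side of the threshold, 15 lost a call, 3 gained one in the same direction and 35 changed sign. Of the last, 1 also gained a call (Zbtb16 at day 14 on the first labelling alone) and 28 had a reported value within 0.15 of 0. Most of the 468 were alternatives to values that had not passed and had no call to lose. The 15 lost calls fell among the alternatives to the results that had passed. They were 6 of 12 for Mef2a at day 7 and 4 of 11 for Irf1 at day 14. For Irf1 at day 14 minus day 3 they were 5 of 12. For the lost calls the cause was not tested beyond what each setting leaves out.

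Mef2a at day 7 lost its call when its 4 spots were averaged (0.93, adjusted p = 0.177), print blocks centred (0.68, 0.0554), both day 1 arrays left out (0.92, 0.0753, chosen after seeing the data) and time 0 subtracted (0.89, 0.0995). With 1 array left out it ran from 0.85 to 0.99 (adjusted p = 0.234 at the lower value and 0.122 at the higher). Irf1 at day 14 lost its call with print blocks centred (-0.31, 0.128), both day 1 arrays left out (-0.62, 0.0811) and time 0 subtracted (-0.395, 0.384), and ran from -0.86 to -0.37 with 1 array left out, the call being lost without the first labelling. Irf1 at day 14 minus day 3 lost it with print blocks centred (-0.71, 0.0515) and both day 1 arrays left out (-1.03, 0.0893). It ran from -1.27 to -0.78 with 1 array left out, and the call held without the reverse array of day 14 alone. In the settings named for a day, the count of probes past the threshold was 0 in place of 1, and it was 0 with either array of day 7 left out. With an array of day 14 left out it ran from 1 to 3: Zbtb16 without the first labelling, and Irf1, Zbtb16 and probe B of Purb without the reverse.

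With labelling orientation as a replicate block, the adjusted p was 0.0484 for Mef2a at day 7, 0.0287 for Irf1 at day 14 and 0.0451 for Irf1 at day 14 minus day 3, with no call of the 6 probes changed.

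Values that changed sign were small, rested on single arrays or days, or turned on how spots or probes were combined. With the mean of the spots, Mef2a (-0.15) and Zbtb16 (0.0022) at time 0, Arid5b at day 7 (0.0042), Zbtb16 (-0.57) and probe A of Purb (0.41) at day 14, and the slope of probe A (0.027) did so. With print blocks centred, Zbtb16 at time 0 (0.095), probe A at day 1 (-0.037), probe B at day 3 (0.0057) and Arid5b at day 14 (-0.16) did so, and with Purb probes averaged, time 0 (0.0070) and day 14 (-0.063). With time 0 subtracted, probe B at day 1 (-0.015) and Arid5b at day 7 (0.072) did so. With either array left out, time 0 ran from -0.26 to 0.31 for Mef2a, -0.11 to 0.080 for Zbtb16 and -0.49 to 0.31 for probe A. Day 1 ran from -0.068 to 0.27 for Irf1, -0.40 to 0.13 for Zbtb16 and -0.047 to 0.085 for probe A. Day 14 ran from -2.15 to 2.47 for Zbtb16, -0.77 to 0.029 for probe A, -0.29 to 0.78 for probe B and -0.038 to 0.14 for Arid5b. The mean over days turned to -0.075 for Irf1 on the first labelling, -0.044 without day 3 and -0.035 without day 7, to 0.35 for Zbtb16 and -0.11 for probe B on the reverse labelling, and to -0.045 for probe B without day 14. The slope turned to 0.21 for Irf1 and -0.094 for probe B without day 14, and for Zbtb16 to 0.079 without time 0, 0.036 without day 7 and 0.015 with day on a linear scale.

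Over settings, calls among all probes ran from 0 to 10 at time 0, 0 to 1 at day 1, 35 to 229 at day 3, 85 to 325 at day 7 and 94 to 394 at day 14. A fit of single days on time-point means was not run, since 1 mean leaves no spread. With 2 arrays a time point and signal over background unknown, these values bear on 1 labelling pair per day.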
